A study of Mus musculus with 12 samples.

Results

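Akap12, Ccbe1, Gap43, Osbp2, Wnt7b, Has1, Sorbs2, Ptgis and Rgs16 are 9 mouse genes whose RNA was plentiful in wild-type C2C12 cells and close to 0 in the Ddx27 knockout line. They are 9 of the 12590 genes listed for both genotypes, and of the 13768 genes listed for either. They were taken by name because their knockout values were near 0 in both total and polysomal RNA, like those of Myod1, the transcription factor that commits cells to the muscle lineage. The genes were thus selected on their measured knockout and wild-type values, with no numeric threshold, and those values are given as a description without a test.

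The genes belong to separate cell-surface and signalling systems. Akap12 is a scaffold that anchors protein kinases A and C, Gap43 is a membrane substrate of protein kinase C best known from nerve growth cones, and Rgs16 speeds the shut-off of G-protein alpha subunits. Wnt7b is a secreted ligand read by Frizzled receptors, Ccbe1 is a secreted protein that assists the maturation of the lymphatic growth factor VEGF-C, and Ptgis makes prostacyclin from the products of cyclooxygenases. Has1 builds the matrix sugar hyaluronan, Sorbs2 is an adaptor of actin anchorage sites, and Osbp2 binds oxysterols. MyoD acts by binding DNA at E-boxes, the motif CANNTG.

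C2C12 is an established mouse myoblast line that can be grown as dividing cells or fused into myotubes. Ddx27-/- cells were compared with wild-type cells, each as polysomal RNA, the RNA carried on several ribosomes, and as total RNA. Ddx27 encodes a nucleolar RNA helicase. The labels list 12 samples, 3 in each of 4 groups, and values were at hand for 11 libraries: 3 knockout polysomal, 2 knockout total, 3 wild-type polysomal and 3 wild-type total. They name no clone, drug, selection step or origin of the replicates, so the p-values cover only the spread between these samples. Libraries held between 13683674 and 27347878 reads. Values are the authors' normalised read counts, in which 3 reads, the limit that a count of 0 allows, are worth 0.0989 to 0.257. In bulk RNA, fewer cells with a transcript and less of it per cell cannot be told apart.

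Ddx27 RNA itself was at 39.7 and 45.04 in the knockout total libraries, against 150, 144 and 139 in the wild-type total libraries. In polysomal RNA it was at 52.6, 41.0 and 31.3 in the knockout, against 213, 139 and 215 in the wild type. The knockout libraries thus lay below every wild-type library of the same fraction but kept 31.9% of the wild-type mean in total and 23.5% in polysomal RNA, and the labels do not say which part of the gene was altered. Of 10 myoblast markers, 9 were listed for both genotypes. In knockout total RNA 7 of them, Myod1 included, were lower and 1, Myf5, was higher, by limma at an adjusted p under 0.05. In polysomal RNA 2 were lower, Myod1 and desmin. The loss of Myod1 was known when the 9 genes were chosen, so its calls are no independent result. The summed level of the 9 markers, Myod1 included, was 1723 to 1872 in knockout total RNA and 3657 to 4998 in wild-type total RNA. Desmin (Des), the muscle intermediate filament, was lower (log2 fold change -1.73 ± 0.22 SE, limma adjusted p = 0.00174), and Pax7, the satellite cell factor, was listed for the wild type only, at 2.91 to 6.74 in total RNA. None of 6 endothelial markers was listed for either genotype. Of the markers of fibroblasts, 3 of 4 tested were lower in knockout total RNA, and their summed level was 375 to 545 in the knockout and 824 to 857 in the wild type. The part of these marker differences in the values of the 9 genes was not tested.

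Promoter windows in the RefSeq table, from 250 bases before to 50 after a transcript start, of the mouse build GRCm38.p6 were found for 4 of the 9 genes (Has1, Osbp2, Rgs16 and Sorbs2), in 8 windows. The E-box CAGCTG, a form that MyoD is known to bind, reads the same on both strands and is one case of CANNTG. Motifs were counted only in the 250 bases before the start of each window, not in the 50 after it. There CAGCTG occurred in 2 of the 8 windows, 1 of Has1 and 1 of Sorbs2, and in 13% of all 32851 windows. CANNTG occurred in 6 of the 8 and in 66.2% of all windows. The 250 bases before the start are shown for Has1 (chr17:17855189-17855438, minus strand) and Sorbs2 (chr8:45507538-45507787, plus strand), which hold the motif, and for Rgs16 (chr1:153740103-153740352, plus strand), which has neither form. Capitals mark CAGCTG, and each is written 5′ to 3′ in the direction of its gene.
Has1: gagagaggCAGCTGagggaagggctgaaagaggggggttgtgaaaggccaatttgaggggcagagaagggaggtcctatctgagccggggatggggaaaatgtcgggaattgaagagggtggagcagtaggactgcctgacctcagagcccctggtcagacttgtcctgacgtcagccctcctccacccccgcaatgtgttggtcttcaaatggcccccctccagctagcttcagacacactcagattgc
Sorbs2: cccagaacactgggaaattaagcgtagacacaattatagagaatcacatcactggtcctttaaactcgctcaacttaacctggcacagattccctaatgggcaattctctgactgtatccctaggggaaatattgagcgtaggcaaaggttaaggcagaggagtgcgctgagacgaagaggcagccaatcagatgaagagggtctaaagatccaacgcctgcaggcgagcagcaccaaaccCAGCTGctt
Rgs16: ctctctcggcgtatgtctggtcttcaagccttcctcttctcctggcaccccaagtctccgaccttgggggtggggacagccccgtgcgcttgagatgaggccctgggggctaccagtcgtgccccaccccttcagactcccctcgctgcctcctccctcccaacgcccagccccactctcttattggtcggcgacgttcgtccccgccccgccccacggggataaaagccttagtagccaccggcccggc
The match lies 242 to 237 bases before the start in Has1 and 9 to 4 bases before it in Sorbs2. These matches describe letters in the reference and do not show binding.

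The 9 genes lie on 9 different chromosomes, in the same build: Akap12 at chr10:4266329-4359471, Ccbe1 at chr18:66056855-66291838, Gap43 at chr16:42248552-42340651, Osbp2 at chr11:3703731-3863999, Wnt7b at chr15:85535437-85581821, Has1 at chr17:17833691-17855589, Sorbs2 at chr8:45507788-45827906, Ptgis at chr2:167203194-167252150 and Rgs16 at chr1:153740353-153745468. All are annotated as protein coding. RefSeq places 16 other genes over parts of these loci. Of them 1, Spaca6 (listed under its older name 4930546H06Rik), is in the deposited tables, and reads from its overlap with Has1 cannot be told apart from Has1 reads, since the sources used here state no strand for the counting. Spaca6 stood at 4.09 to 6.20 in knockout total RNA and 8.01 to 11.5 in wild-type total RNA, and was not called (log2 fold change -0.66 ± 0.23 SE, limma adjusted p = 0.0563).

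Akap12, the kinase scaffold, had 1.42 and 0 in the knockout total libraries, against 168, 182 and 207 in the wild-type total libraries. Its polysomal values were 1.16, 1.80 and 1.38 in the knockout and 76.1, 50.03 and 76.2 in the wild type. The second knockout total library held no Akap12 read, which allows a value of up to 0.121, while the first held 43 reads. On a common scale of all libraries the knockout mean was 0.416% of the wild-type mean in total RNA and 2.28% in polysomal RNA.

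Gap43, the growth-cone protein, had 0.231 and 0.202 in knockout total RNA, against 26.0, 27.97 and 37.8 in wild-type total RNA. In polysomal RNA it had 1.16, 0.428 and 0.129 in the knockout and 25.6, 22.5 and 14.4 in the wild type. The lowest of these knockout values rests on 3 reads. Rgs16, the G-protein regulator, had 0.330 and 0 in knockout total RNA, against 18.8, 17.8 and 22.7 in wild-type total RNA. Its polysomal values were 1.23, 0.685 and 0.603 in the knockout and 27.2, 32.4 and 35.0 in the wild type. The only Rgs16 reads in knockout total RNA were 10 in the first library.

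Among the secreted signals, Wnt7b had 0.495 and 0.324 in knockout total RNA, against 59.6, 50.6 and 85.3 in wild-type total RNA. Its polysomal values were 1.91, 1.11 and 1.08 in the knockout and 21.5, 36.9 and 24.9 in the wild type. Every knockout polysomal value of Wnt7b exceeded both knockout total values, the opposite order to the wild type, as was also so for Osbp2. For Wnt7b this rests on 13 to 28 knockout polysomal reads and 8 to 15 knockout total reads per library. No difference between genotypes is read from it. Ccbe1 had 1.09 and 0.0809 in knockout total RNA, from 33 and 2 reads, against 51.8, 54.2 and 56.0 in wild-type total RNA. Its polysomal values were 0.613, 1.63 and 0.861 in the knockout and 59.0, 29.97 and 78.2 in the wild type. Polysomal and total libraries of Ccbe1 overlapped in both genotypes, with wide spread between the polysomal ones. Ptgis, the prostacyclin synthase, had 1.02 and 1.497 in knockout total RNA, against 71.6, 68.1 and 92.3 in wild-type total RNA, and 0.953, 0.770 and 0.861 in knockout polysomal RNA, against 25.6, 32.6 and 25.8 in wild-type polysomal RNA.

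Has1, the hyaluronan synthase, had 0.594 and 1.09 in knockout total RNA, against 60.5, 50.8 and 60.2 in wild-type total RNA. Its polysomal values were 0.408, 0.428 and 0.258 in the knockout and 20.7, 15.5 and 21.4 in the wild type. All 3 knockout polysomal values of Has1 lay below both knockout total values. Osbp2, the oxysterol-binding protein, had 0.528 and 0.809 in knockout total RNA, against 110, 115 and 150 in wild-type total RNA, and 0.885, 1.71 and 1.55 in knockout polysomal RNA, against 70.8, 55.0 and 97.7 in wild-type polysomal RNA. Sorbs2, the actin adaptor, had 1.32 and 0.567 in knockout total RNA, against 32.7, 35.3 and 37.8 in wild-type total RNA. Its polysomal values were 0.476, 1.11 and 0.732 in the knockout and 7.64, 3.46 and 7.54 in the wild type, the narrowest gap of the 9 genes. For each of the 9 genes the wild-type and knockout libraries did not overlap in either fraction, which is how the genes were chosen.

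**Figure D1:**
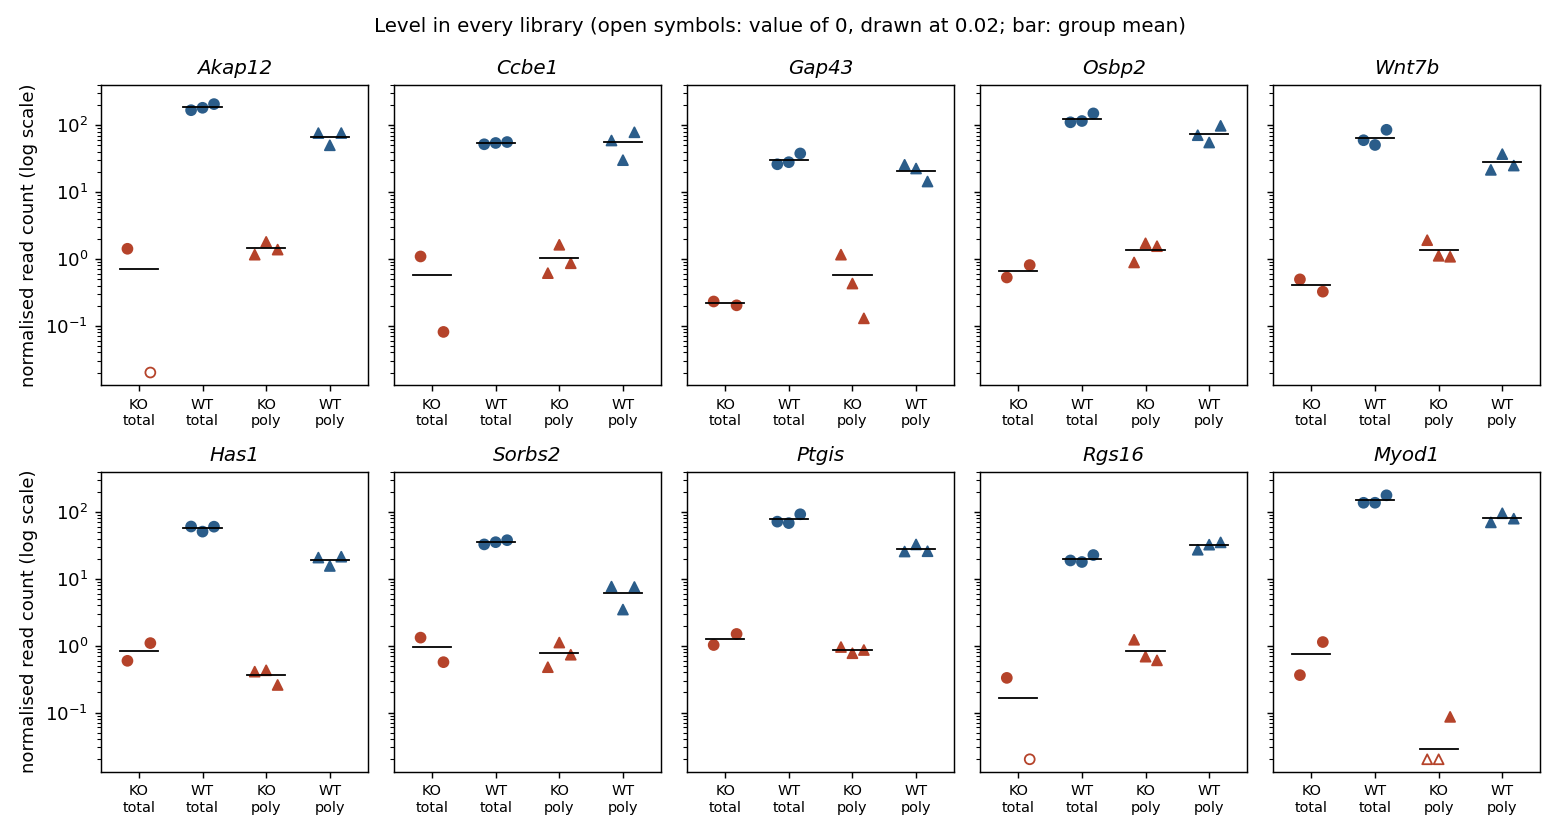
Normalised read count (log axis) of each of the 9 genes and Myod1 in every knockout (red) and wild-type (blue) library, total RNA as circles and polysomal RNA as triangles, with bars at group means and open symbols for values of 0. Knockout libraries of the 9 genes sit at or below 1.91 and wild-type libraries at or above 3.46.

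Myod1, the companion in the choice of these genes, had 0.363 and 1.13 in knockout total RNA, against 137, 137 and 177 in wild-type total RNA. In polysomal RNA it had 0, 0 and 0.0861 in the knockout, against 69.7, 95.5 and 79.3 in the wild type. The knockout mean was 0.541% of the wild-type mean in total and 0.0364% in polysomal RNA. Thus 2 reads remained in knockout polysomal RNA for Myod1, whereas each of the 9 genes kept 17 to 70 reads there.

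The share of the wild-type level left over in the knockout differed between the 9 genes. In total RNA the knockout mean of the 9 genes was 0.416% to 2.91% of the wild-type mean, with a median of 0.908%. In polysomal RNA it was 1.97% to 13.3%, with a median of 2.81%. Sorbs2 had the highest share in polysomal RNA, at 8.25% to 19.4% by library, and Wnt7b was next with a mean of 5.16%. Sorbs2 also had the lowest wild-type polysomal mean of the 9 genes, 5.92 on the common scale. Its knockout polysomal mean of 0.790 lay within the range of the 9 genes, from 0.373 (Has1) to 1.47 (Akap12). In total RNA Sorbs2 kept 4.07% in the first knockout library and 1.75% in the second, where Ptgis kept 2.11% and Has1 2.08%. By library, the 9 genes together had 213 and 113 reads in knockout total RNA and 129, 113 and 173 in knockout polysomal RNA, so each share rests on few reads. The median share over the genes was 1.13% and 0.703% in the knockout total libraries, and 3.6%, 2.87% and 2.14% in the knockout polysomal libraries. Reads of ribosomal RNA-like gene models made up 23.1%, 32.7% and 0.385% of the knockout polysomal libraries and 5.91%, 14.5% and 0.674% of the wild-type polysomal ones, against 0.0535% to 0.135% in total RNA. The third knockout polysomal library, with few such reads, had the lowest of the 3 polysomal medians, and the part of ribosomal RNA in the leftover reads was not tested.

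**Figure D2:**
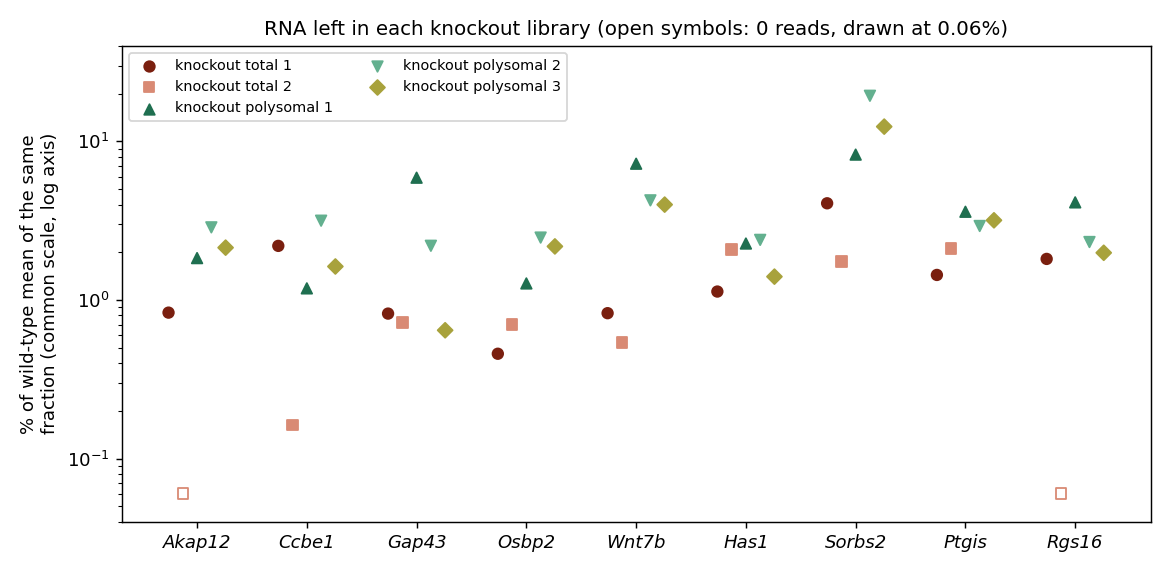
Value of each gene in each of the 5 knockout libraries as a percentage of the wild-type mean of the same fraction (log axis, common scale), with open symbols for libraries without reads. Sorbs2 lies highest in the polysomal libraries, up to 19.4%, and Akap12 and Rgs16 have no read in the second knockout total library.

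Among the 9310 genes with a wild-type mean of at least 10 over both fractions, 17 had a knockout mean under 5% of the wild-type mean, and all 9 genes were among them. Myod1 had rank 1, counted from the lowest, Akap12 rank 2 and Osbp2 rank 4, followed by Ccbe1, Gap43, Has1, Wnt7b and Rgs16, with Ptgis at rank 11 and Sorbs2 at rank 17. The others were Nefl and Nefm, which encode neurofilament subunits, Loxl2, a collagen-crosslinking enzyme, Efhd1, Sdpr, Lama2 and Krt19. Just inside the limit, Sorbs2 kept 4.46% of the wild-type mean and Krt19 kept 4.22%. A further 34 genes with a wild-type mean of at least 10 were listed for the wild type only, so their knockout values are not in the deposited table and could not be ranked.

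Within the wild type, the genes differed widely in level per kilobase of the transcript length in the authors' table. In total RNA Ptgis (30.3 ± 5.12, SD, n = 3), Akap12 (29.7 ± 3.17) and Has1 (27.4 ± 2.66) stood highest and within their spread of each other. Osbp2 (16.4 ± 2.82), Wnt7b (14.8 ± 4.09) and Gap43 (14.1 ± 2.90) formed a middle group that likewise did not differ beyond its spread. Rgs16 (8.47 ± 1.10), Ccbe1 (5.69 ± 0.219) and Sorbs2 (2.13 ± 0.154) followed, each below the one before by more than their SDs. In wild-type polysomal RNA the order changed at the top: Rgs16 came first at 13.5 ± 1.71 per kilobase, within the spread of Ptgis at 10.96 ± 1.57 and Akap12 at 10.8 ± 2.42, and Sorbs2 remained last at 0.375 ± 0.144.

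The ratio of polysomal to total RNA in the wild type was not itself used to choose the genes. The wild-type levels that it compares were, so its tests are not independent of that choice. Of the 9 genes, 5 had less polysomal than total RNA and 1 had more (limma on log2(value + 1), adjusted p under 0.05 over 12380 genes). Over all genes tested, 13.8% were lower and 8.89% higher. The median log2 fold change was -1.20 over the 9 genes and -0.02 over all genes tested. Sorbs2, the actin adaptor, was lowest (log2 fold change -2.39 ± 0.29 SE, limma adjusted p = 0.00302), followed by Has1 (-1.53 ± 0.20, limma adjusted p = 0.00363), Akap12 (-1.47 ± 0.22, limma adjusted p = 0.00557) and Ptgis (-1.43 ± 0.20, limma adjusted p = 0.00473). Each of these 4 calls held under all 13 alternative settings. All 3 polysomal libraries lay below all 3 total libraries for these 4 genes, but also for Wnt7b, and for Osbp2 and Gap43, which were not called. The share of all genes with such a separation was not counted. With the trend on gene length removed, Sorbs2 was at -1.70 and Has1 at -1.74, so the first rank of Sorbs2 depended on the setting. Wnt7b was also lower (-1.20 ± 0.28, limma adjusted p = 0.0222). Its call was lost when any 1 wild-type total library or the first polysomal library was left out (limma adjusted p = 0.0621 to 0.104), and held under the other 9 settings.

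Rgs16 was the only one of the 9 that was higher in wild-type polysomal RNA (log2 fold change 0.65 ± 0.19 SE, limma adjusted p = 0.0492), with 27.2 to 35.0 in polysomal and 17.8 to 22.7 in total libraries. That call was at the threshold and held under 5 of 13 alternatives, with adjusted p-values of 0.00798 to 0.206. It was lost with any 1 wild-type total library, or wild-type polysomal library 1 or 3, left out. Osbp2 (-0.77 ± 0.25, limma adjusted p = 0.0611), Gap43 (-0.56 ± 0.27, limma adjusted p = 0.162) and Ccbe1 (-0.06 ± 0.33, limma adjusted p = 0.910) did not pass. Osbp2 passed without wild-type polysomal library 2 or 3 and by DESeq2 (adjusted p = 0.0208 to 0.0268). The authors' deposited table gave log2 fold changes of -2.49 for Sorbs2, -1.57 for Has1, -0.75 for Osbp2 (FDR 0.0481) and 0.67 for Rgs16 (FDR 0.0644). The second wild-type polysomal library, with the most ribosomal RNA-like reads of its group, held the lowest value of Akap12, Ccbe1, Has1, Osbp2 and Sorbs2 and the highest of Wnt7b and Ptgis.

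**Figure D3:**
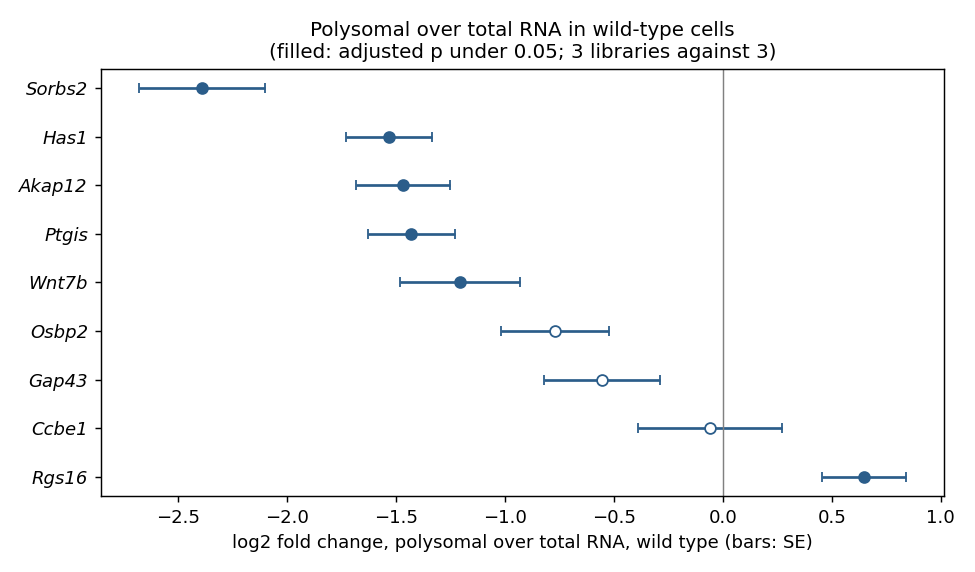
Polysomal over total RNA in wild-type cells, as a log2 fold change for each gene, with SE bars (3 libraries against 3), filled where the limma adjusted p is under 0.05. Sorbs2 is at -2.39, Has1, Akap12, Ptgis and Wnt7b lie between -1.53 and -1.20, and Rgs16 is at 0.65.

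In the knockout the same comparison gives no readable result for these genes. Of the 9, 7 did not reach a value of 1 in 3 knockout libraries, and the other 2, Akap12 and Wnt7b, have the near-zero knockout values by which they were chosen. No test of polysomal against total RNA in the knockout, or of its difference from the wild type, is therefore read for them. Over all 12070 genes tested, 0.911% were higher and 1.85% lower in knockout polysomal than in knockout total RNA (limma adjusted p under 0.05). The difference between genotypes, an interaction added after the data had been seen, was called higher in the knockout for 0.201% and lower for 0.0482% of 12460 genes.

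Related genes and partners of the 9 were compared between genotypes by the same limma fit. Their tests compare knockout with wild type, where 17.9% of 11993 genes were higher and 18.9% lower in total RNA (2141 and 2272 genes, or 1596 and 3113 with the deposited scaling), and 1.62% of 12184 higher and 0.952% lower in polysomal RNA (197 and 116 genes, 157 and 140 with the deposited scaling, or 93 and 98 with plain CPM). No called gene changed direction under another scaling or tool, or with any 1 library left out, wherever it was still tested. Among lists, relatives, markers, neighbours, Ddx27 and the genes most like the 9 in profile, 98 genes were called in total RNA. The last kind was picked for a profile that holds the genotype split. Without wild-type total library 1, 2 and 3, respectively, 34, 38 and 50 of the 98 were tested and no longer called. A further 3, 2 and 2 fell below the filter on low values in these settings and were not tested. In polysomal RNA between 0 and 16 of 20 were tested and no longer called when 1 library was left out, and Myod1 fell below the filter without any 1 wild-type library.

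Has2, another hyaluronan synthase, was higher in the knockout in total RNA, with 93.7 ± 10.7 (SD, n = 2) in the knockout and 37.2 ± 11.8 (SD, n = 3) in the wild type (log2 fold change 1.48 ± 0.26 SE, limma adjusted p = 0.00554). In polysomal RNA it averaged 72.1 in the knockout and 95.5 in the wild type and was not called (limma adjusted p = 0.714). Has3 was not listed. Of 10 genes of hyaluronan synthesis, turnover and binding tested in total RNA, 2 were higher, Has2 and the link protein gene Hapln4, and 1 was lower. The lower one, named after its values were seen, was Cd44, the main hyaluronan receptor, with 206 in the knockout and 926 in the wild type (-2.04 ± 0.14, limma adjusted p = 9.94e-05). In polysomal RNA 1 of 9 was higher, Hapln4 (2.01, limma adjusted p = 0.0107). In total RNA Hapln4 was low, averaging 3.42 in the knockout and 1.87 in the wild type. Its call there was lost with the deposited scaling, with plain CPM and without any 1 wild-type total library.

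Of the Wnt ligands, Wnt4 was higher in both fractions. It averaged 41.5 ± 5.09 (SD, n = 2) in knockout total RNA and 3.87 ± 1.87 (SD, n = 3) in wild-type total RNA (log2 fold change 3.32 ± 0.34 SE, limma adjusted p = 0.000662), and 34.8 in knockout and 4.36 in wild-type polysomal RNA (2.80, limma adjusted p = 0.0026). Wnt7a, the closest relative of Wnt7b, was not listed. Of 5 Wnt ligands tested besides Wnt7b, 2 were higher in total RNA, Wnt4 and, named after its values were seen, Wnt10a (0.72, limma adjusted p = 0.00646), and none was lower by limma, edgeR or DESeq2, or at an unadjusted limma p under 0.05. Of 25 Wnt receptors, transducers and inhibitors, 5 were higher and 5 lower in total RNA. The receptor Fzd1 was higher in both fractions (0.63, limma adjusted p = 0.0179 in total, and 1.07, limma adjusted p = 0.0364 in polysomal RNA). Both calls were lost with some single libraries left out, and the polysomal call also with the deposited scaling and with plain CPM. Of 11 genes known as Wnt targets, 4 were higher and 4 lower in total RNA, and Nkd2, a feedback inhibitor, was higher in both fractions (1.44, limma adjusted p = 0.000979, and 1.75, limma adjusted p = 0.0115).

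Near Ccbe1 in its pathway, Adamts3, the protease that cleaves VEGF-C with the help of CCBE1, was not called (0.62 ± 0.26 SE, limma adjusted p = 0.0897). Vegfc was higher in total RNA, at 16.1 ± 3.94 (SD, n = 2) in the knockout and 8.92 ± 1.30 (SD, n = 3) in the wild type (0.89 ± 0.21, limma adjusted p = 0.0150), a call lost without wild-type total library 1 or 3. Of 13 genes of VEGF-C processing and lymphatic growth, 2 were higher and 4 lower in total RNA, and 2 were lower in polysomal RNA. Adamts14 and Adamts2, procollagen-trimming proteases of the same family as Adamts3, were the genes lower in both fractions, Adamts14 by -1.87 in total (limma adjusted p = 0.000209) and -2.17 in polysomal RNA (limma adjusted p = 0.00523), and Adamts2 by -1.33 in total (limma adjusted p = 0.00217) and -1.53 in polysomal RNA (limma adjusted p = 0.0326).

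Sorbs3, an adaptor of the same family as Sorbs2, was not called in total RNA (-0.32, limma adjusted p = 0.119). Of 18 SoHo adaptors and focal adhesion partners, 8 were lower in total RNA, among them Tln1, Vcl and Pxn, and none was called in polysomal RNA by limma or edgeR, where 2 were higher at an unadjusted p under 0.05 and 2 by DESeq2. The median log2 fold change of the 18 was -0.48 in total and 0.04 in polysomal RNA. For Gap43, its membrane relative Basp1 was lower in total RNA, at 176 in the knockout and 406 in the wild type (-1.08 ± 0.15, limma adjusted p = 0.00213), while Marcks was not called (-0.33, limma adjusted p = 0.110). Of 11 genes listed with Gap43, 1 was higher, Calm2, and 4 were lower in total RNA. Besides Basp1 the lower ones, named after their values were seen, were Sprr1a, Atf3 and Klf6, which are known from regenerating neurons rather than as kinase C substrates.

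Among the relatives of Rgs16, Rgs2 (-0.44, limma adjusted p = 0.0522) and Rgs3 (0.28, limma adjusted p = 0.260) were not called in total RNA, Rgs4 was too low to test there, and Rgs5 and Rgs8 were not listed. Of 6 RGS genes tested in total RNA, 1 was higher and 2 lower, and Rgs19 was lower in both fractions (-1.19, limma adjusted p = 0.00197, and -1.49, limma adjusted p = 0.0391). The higher one, Rgs10, and the other lower one, Rgs12, are named after their values were seen. Of 7 RGS genes tested in polysomal RNA 2 were lower, Rgs19 and, named after its values were seen, Rgs20 (-1.11, limma adjusted p = 0.0492). The polysomal call of Rgs20 held under 4 of 12 alternatives and was lost with edgeR and with plain CPM. That of Rgs19 held under 7 of 12, lost only with some single libraries left out. Of 9 G-protein alpha subunits, 4 were lower in total RNA (Gnai2, Gnaq, Gna12 and Gnas, named after their values were seen), and none was called in polysomal RNA by limma, edgeR or DESeq2, or at an unadjusted limma p under 0.05.

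The cyclooxygenase genes upstream of Ptgis were not called in either fraction, with Ptgs1 at 458 ± 12.9 (SD, n = 2) in knockout and 385 ± 27.9 (SD, n = 3) in wild-type total RNA (0.37, limma adjusted p = 0.0591), and Ptgs2 at 24.0 and 19.1 (0.43, limma adjusted p = 0.0719). The prostacyclin receptor Ptgir was listed but too low to test. Of 16 prostanoid genes, 2 were higher in total RNA, the transporter Abcc4 and Cbr1, named after their values were seen. The calls of Abcc4 and Cbr1 each held under 6 of 11 alternatives. Both were lost with the deposited scaling and without any 1 wild-type total library. None of the 16 was lower by limma, edgeR or DESeq2, with 2 lower at an unadjusted limma p under 0.05. Osbp, the founding relative of Osbp2, was not called (-0.17, limma adjusted p = 0.377), and of 15 oxysterol-binding protein genes 1 was higher (Osbpl6) and 3 lower (Osbpl2, Osbpl8 and Osbpl11, named after their values were seen) in total RNA. Of 18 genes of kinase A anchoring and signalling besides Akap12, 6 were lower in total RNA, while none was called in polysomal RNA by limma, edgeR or DESeq2, with 2 higher and 1 lower at an unadjusted limma p under 0.05. Akap5 was not listed.

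**Figure D4:**
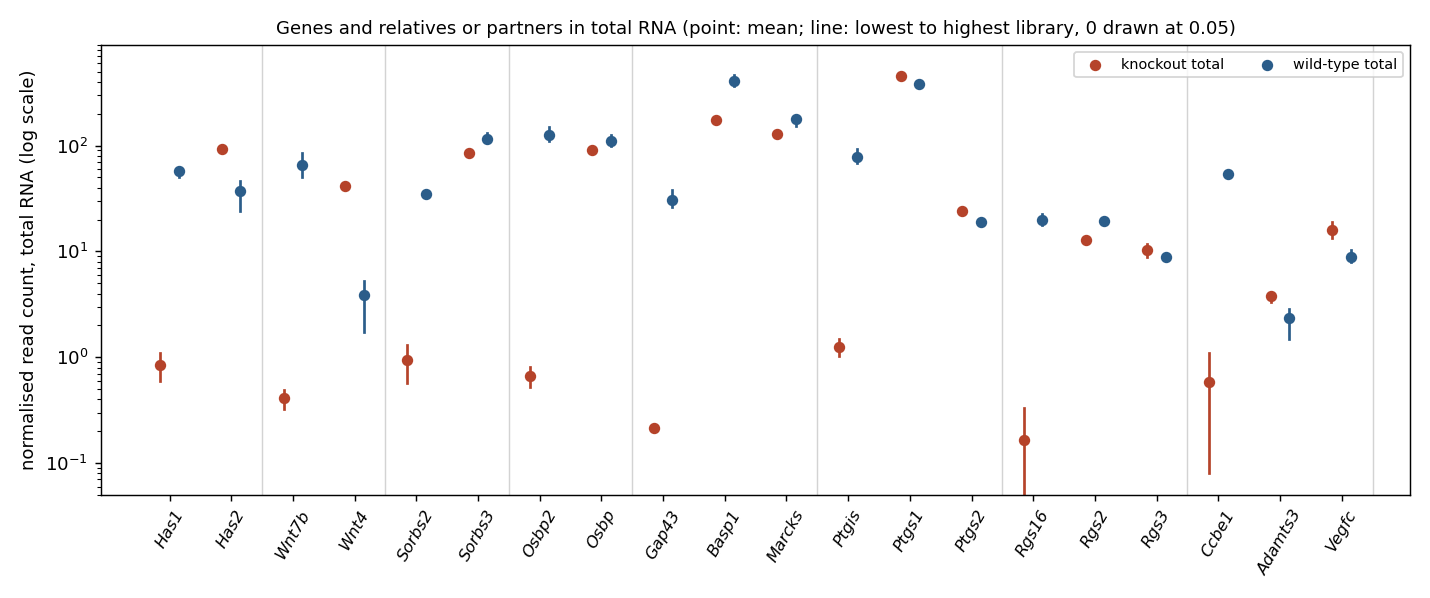
Normalised read count in total RNA (log axis) of 8 of the genes and of listed relatives or partners, as group means with lines from the lowest to the highest library, knockout in red and wild type in blue. Has2 and Wnt4 stand higher in the knockout, at 93.7 and 41.5, while Has1 and Wnt7b average 0.843 and 0.409 there.

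Genes beside the 9 on the chromosome were compared in the same way, with the 2 nearest listed genes on each side by annotated start. In total RNA 32 of the 36 neighbours could be tested, and 3 were higher and 11 lower in the knockout, with a median log2 fold change of -0.43 against -0.02 over all genes. The 11 lower calls became 7, 6 and 5 without wild-type total library 1, 2 and 3, and 20 without knockout total library 1. In polysomal RNA 34 were tested and 1 was lower, with a median of -0.04. The lower one was Pmaip1, which encodes the cell death protein Noxa and lies 167 kb after Ccbe1. It averaged 0.447 in knockout and 12.2 in wild-type total RNA (-3.13, limma adjusted p = 0.000137), and its polysomal log2 fold change was -2.15 (limma adjusted p = 0.0231). Without any 1 wild-type total library it fell below the filter and was not tested, and without either knockout total library it was still called. Its polysomal call was lost in 5 of the 6 fits with 1 library left out (limma adjusted p = 0.0737 to 0.160), and held without wild-type polysomal library 2. Fbln1, 249 kb before Wnt7b, was lower in total RNA (-1.61, limma adjusted p = 0.000482). Pdlim3, which lies 57.6 kb after Sorbs2 and encodes a partner of alpha-actinin in muscle, was listed for the wild type only, at 85.7, 80.1 and 111 in total and 14.9, 13.2 and 10.2 in polysomal RNA.

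Ptgis lies 168 kb from the targeted gene Ddx27 on the same chromosome. In a region reaching 500 kb beyond each of the pair, chosen after values had been seen, 17 other genes were listed for both genotypes. In total RNA 2 of them were higher, 4 lower, 9 not called and 2 not tested, with log2 fold changes of -0.91 to 1.70, and none of the 17 was called in polysomal RNA by limma or edgeR, with 1 higher at an unadjusted limma p under 0.05 and 1 by DESeq2. The highest was 1500012F01Rik, with 177 in the knockout and 50.9 in the wild type (1.70, limma adjusted p = 0.0151).

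**Figure D5:**
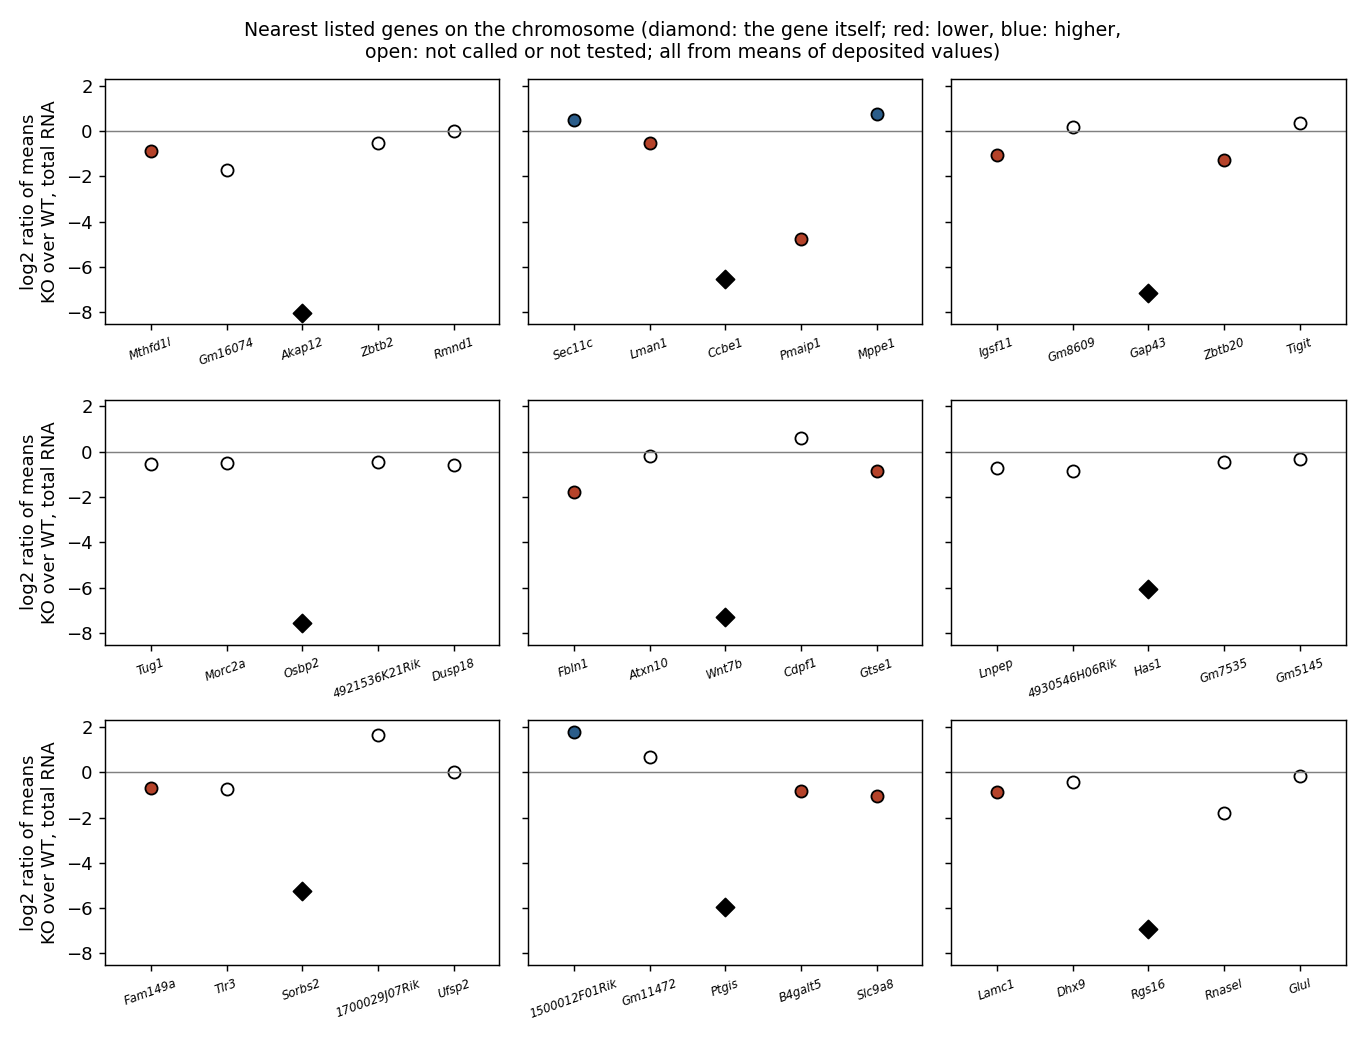
Log2 ratio of group means, knockout over wild type in total RNA, for each gene (diamond) and its 2 nearest listed neighbours on each side in chromosome order (circles; red lower, blue higher, open not called or not tested). Pmaip1 beside Ccbe1 is the neighbour with the lowest ratio, and the rest lie far above the diamonds.

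Across the 11 libraries, the genes whose level was most like the mean profile of the 9 were Nefl (Pearson r = 0.991), Pkp1 (r = 0.991), Loxl2 (r = 0.991), Emp1 (r = 0.989) and Fyn (r = 0.988), given as a description since the libraries share the genotype split. Nefl was nearly as low as the 9 genes in the knockout, with a group mean on the common scale of 1.62 in knockout and 297 in wild-type total RNA. Emp1, in contrast, kept 388 in knockout total RNA, against 1002 in the wild type.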

How the data were processed

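RNA sequencing of total and polysomal RNA gave 1 complete table per genotype. The authors deposited, for each library, a normalised signal for every listed gene, scaled apart in each table. Per the file headers the tables also hold gene lengths, log2 fold changes of polysomal over total RNA and p-values with FDR. The build mm10 and the tools edgeR, HTSeq and STAR are named in the submitters' processing notes, with no versions or roles. In all libraries 100% of values were whole reads times 1 factor per library, within 0.001 reads. Column sums of 847338 to 1215073 show that the values are not plain CPM.

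Values were brought to a common scale by the median ratio over genes (factors 0.953 to 1.07) for comparisons between genotypes. Tests used limma 3.58.1 in R 4.3.3 on log2(value + 1), for genes that reached a value of 1 in 3 or more libraries, with Benjamini-Hochberg adjustment over all genes tested and a threshold of 0.05. Each comparison was fitted on its own libraries, and the interaction on all 11. As alternatives, edgeR 4.0.16 and DESeq2 1.42.0 ran on the recovered reads. The edgeR quasi-likelihood test called 2874 genes for polysomal over total RNA in the wild type, and 303 in the knockout, and for knockout over wild type it called 4326 in total RNA and 272 in polysomal RNA. The fits were tested on simulated data.

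The members and gene lists were chosen with earlier results of these data known. Other genes named are companions, relatives, up to 4 per list called the same way in both fractions, the nearest neighbours and the 5 most alike profiles, and the text says where a gene was named after its values were seen. Names were matched to RefSeq for 12367 of 12576. Pde4d, which has more than 1 ID in the tables, was left out of list counts. Coordinates and promoters come from the RefSeq tables, and counting intervals and floors cover counting error only. Subset tables of the same genes were not used. Some relatives and list genes are not reported here.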

Additional observations from a re-analysis of the deposited data

How the results depend on the processing

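The deposited depth leaves 113 to 213 reads for the 9 genes in each knockout library, which limits every knockout share, and 2 libraries represent knockout total RNA, so a fit without either assumes that the remaining one varies like the other groups. The calls of Akap12, Has1, Sorbs2 and Ptgis for polysomal over total RNA in the wild type held under all 13 alternatives. Ccbe1, which was not called, turned from -0.06 to 0.0583 with edgeR, 0.0605 with DESeq2 and 0.39 with the trend on gene length removed, and ranged from -0.35 to 0.33 with single libraries left out. Of the 9 genes, 6 were called there, and 4 to 7 with single libraries left out.

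Over all genes, 2806 were called for polysomal over total RNA in the wild type, 4369 by DESeq2 and 461 to 5777 with single libraries left out. In the knockout 333 were called, 1288 by DESeq2, 1459 with the length trend removed and 5 to 1622 with single libraries left out. For knockout over wild type 4413 were called in total RNA, with 1574 to 7172 when single libraries were left out. In polysomal RNA 313 were called, 955 by DESeq2, 191 with plain CPM and 25 to 594 with single libraries left out. The causes were not tested. The interaction called 31 genes, 27 with a pseudocount of 0.1 and 31 with edgeR.

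The labels do not state whether same-numbered wild-type samples belong together. Same-numbered total and polysomal libraries had correlated deviations of 0.21, -0.22 and -0.07. These are deviations from means of 3 libraries each, so they cannot exclude a pairing. With the replicate number as a block 1946 genes and 5 of the 9 were called, Rgs16 losing its call (adjusted p = 0.101). No paired analysis was possible because the knockout columns carry no sample number, for any comparison with the knockout.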

Other observations

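Marker genes of other cell types, read in the same knockout against wild-type comparison, gave values of their own. Of 4 neuronal and Schwann cell markers listed for either genotype, the 2 listed for both were Tubb3, a neuronal tubulin, and Stmn2. Tubb3 averaged 38.9 in knockout and 238 in wild-type total RNA (log2 fold change -2.46 ± 0.16 SE, limma adjusted p = 6.76e-05), and was also lower in polysomal RNA (-1.22, limma adjusted p = 0.0339). Stmn2 was not called (-0.23, limma adjusted p = 0.424). The smooth muscle markers Acta2 (0.83, limma adjusted p = 0.00689) and Tagln (0.81, limma adjusted p = 0.0401) were higher in knockout total RNA, while Tagln was lower in polysomal RNA (-2.03, limma adjusted p = 0.0148). The total call of Tagln was lost with the deposited scaling and without any 1 wild-type total library. Cnn1, another smooth muscle marker, was listed for the wild type only, at 3.49 to 3.89 in total and 7.59 to 11.4 in polysomal RNA. Myh11 and Myocd were not listed. All 3 leukocyte markers listed, Cd68, Cd14 and Csf1r, were higher in total RNA at a summed level of 25.1 to 36.3 in the knockout and 12.8 to 17.2 in the wild type, while Ptprc and Itgam were not listed. Of the adipocyte markers, Cebpa was higher in polysomal RNA (1.78, limma adjusted p = 0.0216) and Pparg was not called, and the osteoblast marker Runx2 was not called in either fraction.

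Among the genes as low as the 9 in the knockout, on the common scale and averaged over both fractions, Nefl kept 1.03% of the wild-type mean, Nefm 2.09%, Loxl2 2.32%, Efhd1 2.86%, Sdpr 3.63% and Lama2 3.77%. Fyn, a Src-family kinase picked for a profile like that of the 9, kept 21.6 in knockout total RNA, against 129 in the wild type. These values are a description without a test, since that profile holds the genotype split.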
